A study of Mus musculus with 1753 samples.

Results

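Scx, Mkx and Tnmd mark tendon cells, and their reads were followed cell by cell through the connective tissue of mouse skeletal muscle. They are 3 of the 46517 gene rows of the count table and were picked by name, through the Ensembl identifiers that carry these symbols in GENCODE M21. Smart-seq2, a method that reads along whole polyadenylated transcripts without molecular identifiers, had been applied to 1753 sorted cells, each a sample of its own. The labels give every cell 1 of 10 clusters, 1 of 5 strain labels and 1 of 8 plates. The cells came from the calf muscles (gastrocnemius and soleus) of male mice between 10 and 20 weeks old, and the labels name no treatment. The sort kept cells without the endothelial protein CD31 that either bound an antibody to PDGFRα or PDGFRβ or carried a reporter colour. C57BL6 (373 cells) is the inbred strain without a reporter. PdgfrbGFP (630 cells), Cspg4dsRED (181 cells) and Acta2GFP (157 cells) are transgenic lines in which sequences of Pdgfrb, Cspg4 or Acta2 drive a fluorescent protein, and elastase was added to the digest of Acta2GFP muscle. The label PdgfraGFP - PdgfrbGFP pool (412 cells), called the pool here, mixes PdgfrbGFP with a line that carries a nuclear GFP at the Pdgfra locus, and its soleus muscles came from 1 mouse of each line. The reporter decides which cells reach a plate, and Acta2GFP and Cspg4dsRED each filled 1 plate, so reporter, mouse and plate cannot be told apart there. Nearly the same holds for C57BL6, since 1 plate held 366 of its 373 cells. The labels name no mouse. The strain label therefore served as the replicate, n counts strain labels, and p-values measure the spread between labels, which may be technical.

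Scleraxis, the product of Scx, is a basic helix-loop-helix transcription factor that marks tendon progenitors from early on and remains in the cells of mature tendon. Mohawk, the product of Mkx, is a homeobox transcription factor needed for the growth of tendon collagen fibrils. Tenomodulin, the product of Tnmd, is a transmembrane glycoprotein of differentiated tendon cells, and its expression in tendon depends on scleraxis. In muscle, collagen sheaths lie at several scales, from the thin endomysium between neighbouring fibres to the thicker perimysium that packs them into bundles and joins the tendon. The study called clusters 2 (269 cells) and 9 (59 cells) perimysial, cluster 4 (60 cells) paramysial, and clusters 1, 3, 5, 6 and 8 (1116 cells) endomysial. Cluster 7 (187 cells) held the mural cells that wrap blood vessels, and cluster 10 (62 cells) had no class name. The clusters had been made by the authors from these same counts, so a difference between clusters describes that grouping and is not independent evidence for it.

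The genes lie apart in the genome (GRCm38). Scx (ENSMUSG00000034161) spans positions 76457452 to 76459458 of chromosome 15 on the plus strand, inside an intron of Bop1, which runs the other way, and the genes share 0 exonic bases. Mkx (ENSMUSG00000061013) spans 6934518 to 7004780 of chromosome 18 on the minus strand, and 4.91% of its 4095 exonic bases are shared with another transcript of the same strand. Tnmd (ENSMUSG00000031250) spans 133850980 to 133865577 of chromosome X on the plus strand with no overlapping gene. The use of strand in the counting was not stated, so unspliced Bop1 reads could in part be counted for Scx. Bop1 itself, looked at for this reason, averaged 30.9 counts per 500000 in cluster 2, 65.4 in cluster 9 and 16.8 in endomysial cells, where Scx averaged 80.3, 175 and 0.362 over cells.

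Because scleraxis binds E-boxes (CANNTG) and Tnmd was high where Scx was high, the sequence upstream of Tnmd is shown, from RefSeq (GRCm38.p6, chrX:133850758-133850979, plus strand). These 222 bases end just before the annotated gene start.

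Tnmd upstream: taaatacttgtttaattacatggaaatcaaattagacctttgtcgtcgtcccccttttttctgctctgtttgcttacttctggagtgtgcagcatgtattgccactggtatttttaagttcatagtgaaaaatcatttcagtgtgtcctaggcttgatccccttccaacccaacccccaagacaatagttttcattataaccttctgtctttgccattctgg

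No base is in capitals, since a search of both strands found 0 matches to CANNTG and 0 to TATAAA in this window. Among 32851 promoters of the same table, 62.4% held 1 or more CANNTG in the same window and 10.07% held TATAAA. For each promoter that window was the first 222 of the 250 bases before the start site of the table. The bases nearest to that start site were thus left out, and both shares are for this window only. These letters are not in this window, and nothing about binding elsewhere follows from that.

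Depth ran from 46097 to 1055869 counts per cell outside the ERCC spike-ins, with a median of 258251. Median depth was 256378 counts in cluster 2, 296083 in cluster 9, 595321 in cluster 4, 276880 in endomysial cells and 156959 in mural cells. Levels below are counts of a cell scaled to 500000, averaged over the cells of a strain and then over strains with 3 or more cells. The class names were checked at 100 or more scaled counts. Thbs4 passed in 100% of cells of clusters 2 and 9 and in 22.04% of endomysial cells, but also in 98.3% of cluster 4 and 74.2% of cluster 10. Thbs1 passed in 75.8% of cluster 2, 89.8% of cluster 9 and 20.0% of cluster 4, and Col11a1 in 58.7%, 59.3% and 5.0%. Thbs1 also passed in 53.2% of cluster 10, 20.9% of cluster 7 and 6.72% of endomysial cells, and Col11a1 in 0%, 0% and 0.0896%. Postn, a paramysial marker, passed in 96.7% of cluster 4, but also in 81.4% of cluster 9 against 4.09% of cluster 2. Postn alone thus did not set cluster 4 apart from both perimysial clusters. Of the other paramysial markers, C1qtnf3 passed in 65.0% of cluster 4, 3.39% of cluster 9 and 22.3% of cluster 2. Cthrc1 passed in 55.0%, 35.6% and 12.6%, and the fibroblast marker Pdgfra in 45.0%, 1.69% and 4.09%, in the same order. Other listed fibroblast markers were less scarce in the perimysial clusters. Lum passed in 98.3%, 39.0% and 19.3% and Cd34 in 85.0%, 44.1% and 22.7%, again in that order, and Dcn and Col1a1 in 100% of each. Of the mural markers, Acta2 passed in 98.4% of cluster 7, Myh11 in 95.7%, Mcam in 74.9%, Notch3 in 68.4% and Rgs5 in 20.3%. Endothelial markers (Pecam1, Cdh5, Kdr, Cldn5) passed in at most 1.69% and immune markers (Ptprc, Cd68, Csf1r, Cd52) in at most 2.60% of the cells of clusters 2, 9 and 4, after the authors had removed cells with such signatures. Other lists were less clean. The muscle actin Acta1 passed in 8.55% of cluster 2, 15.3% of cluster 9, 26.7% of cluster 4 and 17.0% of endomysial cells. The mural marker Acta2 passed in 42.8%, 71.2%, 26.7% and 9.50% of the same, whereas Myh11 passed in 0% of clusters 2, 9 and 4. The source of these reads was not tested.

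Scx, Mkx and Tnmd were high in clusters 2 and 9 and near 0 in most other cells. The study had already reported Scx and Tnmd in perimysial cells, so for these 2 genes the pattern was known. Scx, the transcription factor, averaged 75.5 ± 33.0 scaled counts in cluster 2 (SD, n = 5 strains) and 178 ± 46.4 in cluster 9 (n = 4), against 0.475 ± 0.498 in endomysial cells (n = 5). By strain, cluster 2 gave 85.3 in Acta2GFP, 89.0 in C57BL6, 26.6 in Cspg4dsRED, 114 in the pool and 62.1 in PdgfrbGFP. Cluster 9 gave 210.4 in Acta2GFP, 155 in C57BL6, 223 in the pool and 124 in PdgfrbGFP, and Cspg4dsRED had 2 cells there, too few to enter. Every strain mean of cluster 9 lay above every strain mean of cluster 2, the pool and PdgfrbGFP being highest and lowest in cluster 9.

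Mkx, the homeobox factor, showed the opposite order of the perimysial clusters. Its mean was 219 ± 40.3 scaled counts in cluster 2 (n = 5) and 158 ± 38.3 in cluster 9 (n = 4), against 0.708 ± 0.544 in endomysial cells. Cluster 2 gave 249 in Acta2GFP, 206 in C57BL6, 168 in Cspg4dsRED, 269.6 in the pool and 203 in PdgfrbGFP. In cluster 9 the means were 139, 119, 166 and 208 in Acta2GFP, C57BL6, the pool and PdgfrbGFP. These strain ranges overlapped, PdgfrbGFP in cluster 9 standing above C57BL6, Cspg4dsRED and PdgfrbGFP in cluster 2.

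Tnmd, the membrane protein, was the most abundant of the 3. It averaged 1342 ± 242 scaled counts in cluster 2 (n = 5) and 1073 ± 156 in cluster 9 (n = 4), against 16.9 ± 14.2 in endomysial cells. In cluster 2 its means were 1676 in Acta2GFP, 1253 in C57BL6, 1459.8 in Cspg4dsRED, 1028 in the pool and 1296 in PdgfrbGFP. In cluster 9 they were 1127, 944, 951 and 1269.9 in Acta2GFP, C57BL6, the pool and PdgfrbGFP, 2 of them within and 2 below the range of cluster 2. Per kilobase of exon, so that genes can be set beside each other, Tnmd stood at 992 scaled counts in cluster 2, Mkx at 53.5 and Scx at 37.6. In cluster 9 the same quantity was 793 for Tnmd, 88.7 for Scx and 38.6 for Mkx, so with these lengths Scx and Mkx changed places, as their undivided means did. The length of Scx was 2007 bases, 1 exon block over the whole gene, and a shorter transcript would give it higher values per kilobase.

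**Figure D1:**
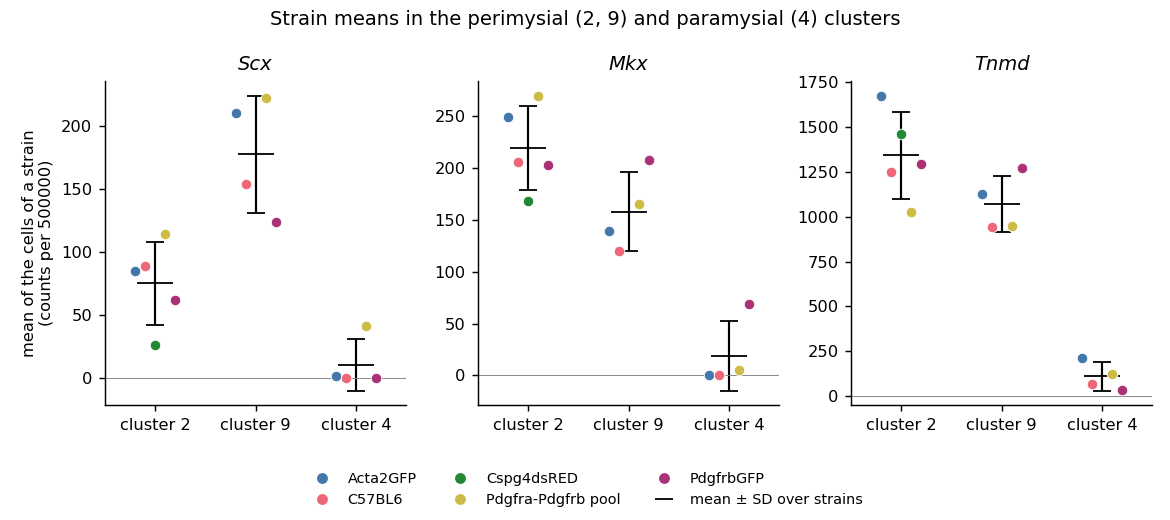
Mean level of each gene (vertical axis, counts per 500000, linear) in clusters 2, 9 and 4; each point is the mean over the cells of 1 strain with 3 or more cells, and black bars are the mean ± SD over strains. Scx is higher in cluster 9 (mean 178) than in cluster 2 (75.5), Mkx and Tnmd overlap between these clusters, and in cluster 4 Scx rests on the pool (41.5) and Mkx on PdgfrbGFP (69.2).

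Over the 10 clusters the order of Scx was cluster 9, cluster 2, cluster 4 and then clusters 8, 7, 1, 3, 6, 10 and 5, where the mean fell from 0.744 to 0.0614. For Mkx it was cluster 2, 9, 4, 7, 6, 3, 8, 1, 10 and 5, and for Tnmd cluster 2, 9, 4, 5, 7, 6, 3, 8, 1 and 10. Neighbours in these orders had overlapping strain ranges except at 5 steps. For Scx the ranges of clusters 9 and 2 were apart, for Mkx those of clusters 9 and 4 and of clusters 1 and 10, and for Tnmd those of clusters 9 and 4 and of clusters 1 and 10. Tnmd in cluster 10, at 2.43 ± 0.921 (n = 3), was the lowest of all clusters.

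**Figure D2:**
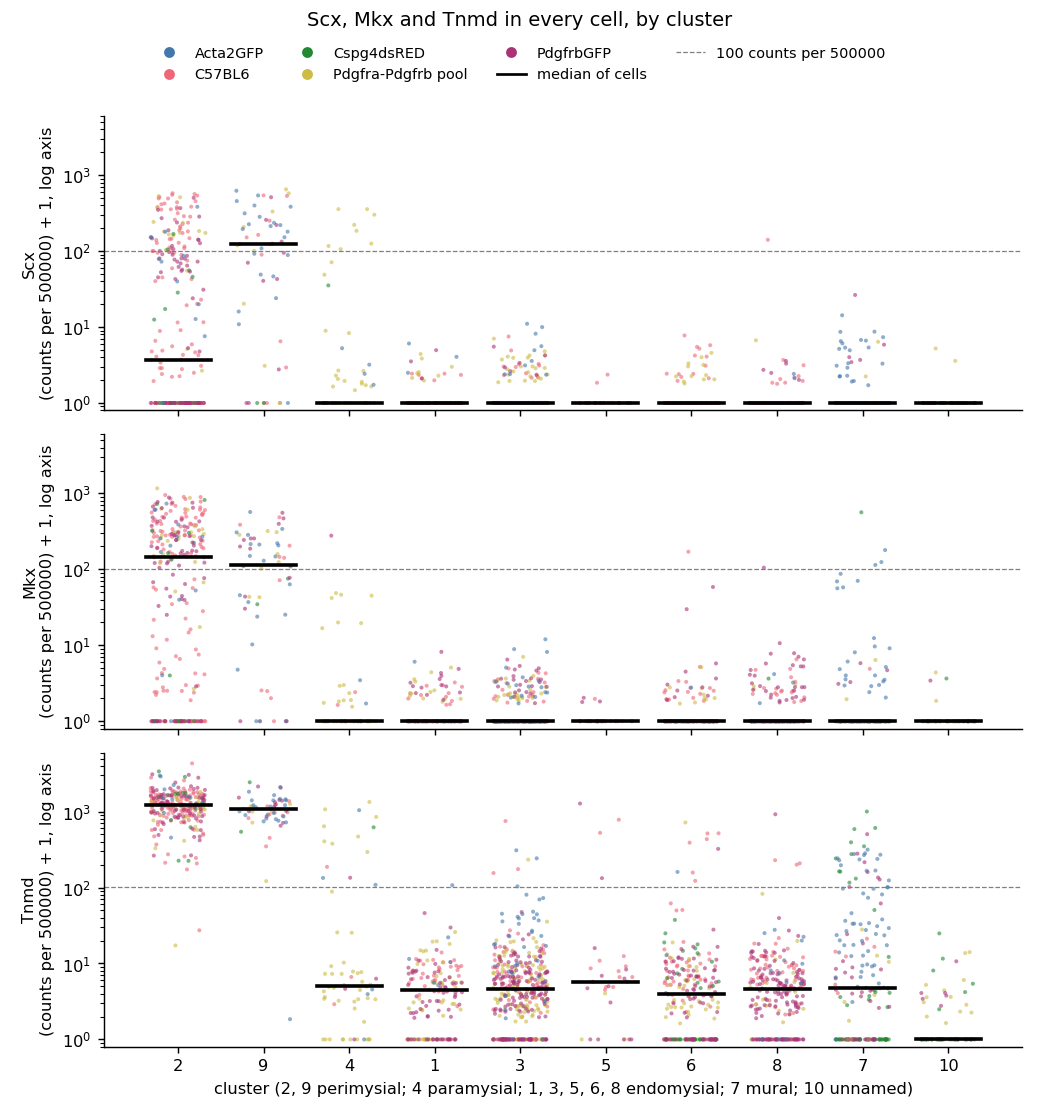
Level of each gene in all 1753 cells (vertical axis, counts per 500000 plus 1, logarithmic) by cluster (horizontal axis), coloured by strain label, with the median of cells as a black line and 100 counts as a dashed line. In cluster 2 the Tnmd median is 1229 and few cells are low, whereas Scx (median 2.72) and Mkx (median 144) spread from 0 to 578 and 1164 counts.

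Within cluster 2 the genes differed in how evenly the cells carried them. Tnmd had a median of 1229 scaled counts over the 269 cells, with quartiles of 911 and 1586, and 267 cells (99.3%) reached 100. Mkx had a median of 144 with quartiles of 0.887 and 320.2, and 147 cells (54.6%) reached 100. Scx had a median of 2.72 with quartiles of 0 and 104, and 69 cells (25.7%) reached 100. The highest 10% of the cells held 53.5% of all Scx, 36.1% of all Mkx and 19.1% of all Tnmd.

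In cluster 9 more cells carried Scx. It reached 100 in 32 of 59 cells (54.2%, exact binomial 95% interval 40.8 to 67.3), against an interval of 20.5 to 31.3 in cluster 2. Mkx reached 100 in 33 cells (55.9%, 42.4 to 68.8) and Tnmd in 58 (98.3%, 90.9 to 99.96). These intervals cover the counting of cells only, and reads after PCR are not independent molecules.

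A read of any number is a weaker sign, since low counts of Tnmd occurred almost everywhere. Tnmd had 1 or more reads in 100% of cells of clusters 2 and 9, and also in 73.6% of endomysial and 63.6% of mural cells, where its median was 3.60 and 3.74 scaled counts. Outside clusters 2, 9 and 4, the median Tnmd of the cells of a plate ran from 0 to 21.6 scaled counts, and from 0% to 6.34% of the mean of the whole plate. Scx had a read in 54.6% of cluster 2, 84.7% of cluster 9, 10.5% of endomysial and 15.5% of mural cells. Mkx had a read in 75.1%, 86.4%, 19.4% and 17.6% of the same. Thinned to 45000 reads per cell, the expected shares were 46.4% of cluster 2 and 78.2% of cluster 9 for Scx, against 2.16% of endomysial and 5.36% of mural cells. Shares at 100 or more counts are therefore used for the comparisons between genes in 1 cell.

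How far the 3 genes occur in the same cell was then counted. In cluster 2, 38 of 269 cells (14.1%, 10.2 to 18.9) had all 3 at 100 or more counts, 108 (40.1%) had Mkx and Tnmd, 31 (11.5%) had Scx and Tnmd, and 90 (33.5%) had Tnmd alone. Scx and Mkx without Tnmd occurred in 0 cells, which allows a share of up to 1.12%. In cluster 9, 19 of 59 cells (32.2%, 20.6 to 45.6) had all 3, 14 (23.7%) had Mkx and Tnmd, 12 (20.3%) had Scx and Tnmd, and 13 (22.03%) had Tnmd alone.

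The transcription factors met in the same cell about as often as their separate shares give. The product of the shares, taken within strains and summed, is 38.6 cells for Scx with Mkx in cluster 2, where 38 were found, and 18.6 cells in cluster 9, where 19 were found. At 1 or more reads the counts were 108 against 112 in cluster 2 and 44 against 43.2 in cluster 9. Mkx reached 100 counts in 55.1% of the 69 cells of cluster 2 with Scx at 100 or more and in 54.5% of the other 200. The correlation of log2 levels across the 269 cells was 0.00 for Scx with Mkx, 0.07 for Scx with Tnmd and 0.08 for Mkx with Tnmd, given as a description of cells that share plates and libraries. Across the 59 cells of cluster 9 the values were 0.06, -0.02 and 0.27 in the same order.

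**Figure D3:**
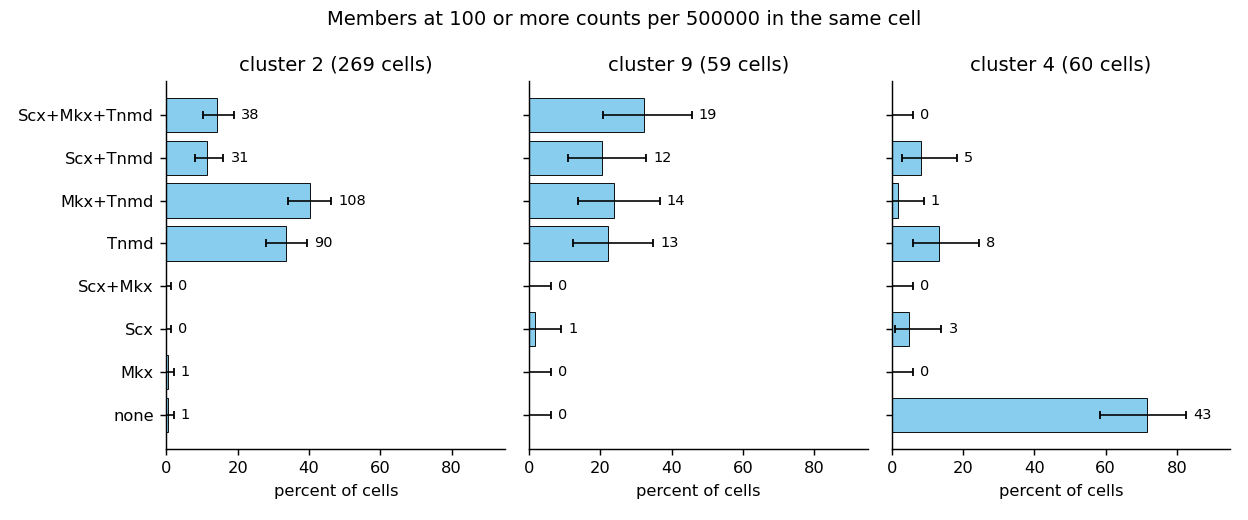
Percent of cells (horizontal axis) with each combination of the genes at 100 or more counts per 500000, in clusters 2, 9 and 4; bars carry the number of cells, and error bars are exact binomial 95% intervals. All 3 genes together are found in 38 cells of cluster 2, 19 of cluster 9 and 0 of cluster 4, and 43 of the 60 cells of cluster 4 have no gene at this level.

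Tnmd had nearly the same median in perimysial cells with Scx at 100 or more counts and in those below that. In cluster 2 it was 1217 scaled counts in the 69 cells with Scx at 100 or more (quartiles 972 and 1539) and 1233 in the 200 cells below that (896 and 1603). In cluster 9 the medians were 1063 in 32 cells and 1066 in 27. The cells below 100 were not all free of Scx, as 122 of the 200 and 9 of the 27 had 0 reads. Split by Mkx, the medians in cluster 2 were 1235 in 147 cells and 1224 in 122, and in cluster 9 they were 1078 in 33 and 1001 in 26.

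**Figure D4:**
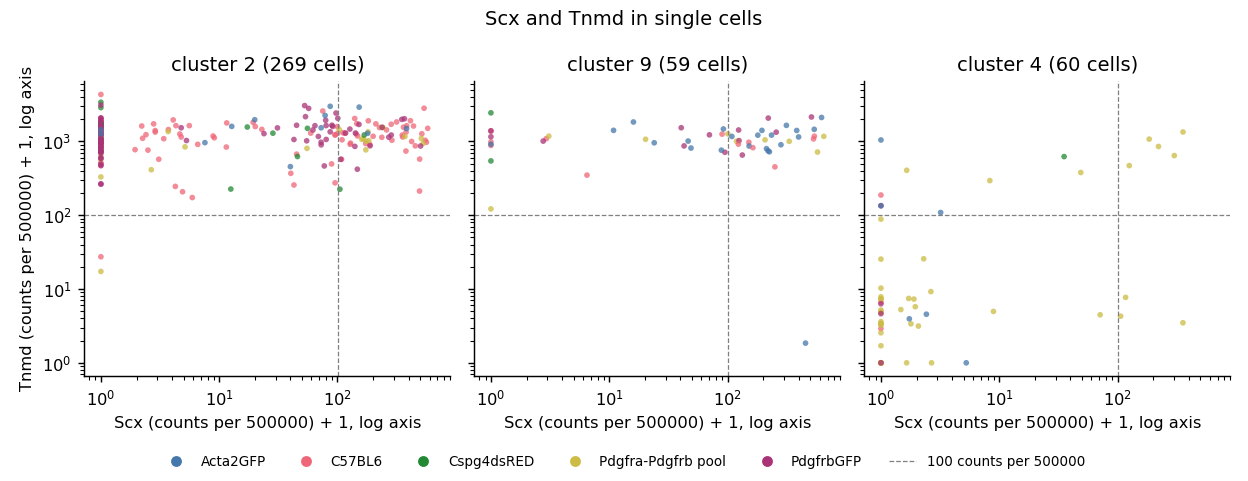
Scx (horizontal axis) and Tnmd (vertical axis) in each cell of clusters 2, 9 and 4, both as counts per 500000 plus 1 on logarithmic axes, coloured by strain label, with 100 counts as dashed lines. In cluster 2 the Tnmd medians are 1217 for cells with Scx at 100 or more and 1233 for the others, and in cluster 4 a group of 5 pool cells has both genes at 100 or more.

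Other tendon matrix genes were set side by side in the same way. Of the 28 genes in a list of tendon matrix and surface proteins, 26 averaged 50 or more counts in either set of cluster 2 cells, and the ratio of the mean with Scx at 100 or more to the mean below it ran from 0.567 (Chodl, a membrane lectin) to 1.50 (Col12a1, a fibril-associated collagen), with a median of 0.983. Chodl was lower in 3 of 3 strains with 5 or more cells on each side, and Col12a1 higher in 3 of 3. In cluster 9 the median ratio was 1.01 over 24 genes, and the highest, 2.39, belonged to Tnc (tenascin C), at a mean of 177 counts with Scx at 100 or more and 74.2 below, medians of 10.2 and 4.63, and higher in 2 of 3 strains. Split by Mkx, Tnc in cluster 9 gave the lowest ratio, 0.309, and was lower in 3 of 3 strains. In cluster 2 the same split went the other way, with Tnc at the highest ratio, 1.40, and higher in 4 of 4 strains. These ratios were not tested.

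Cluster 4 differed from the perimysial clusters, in that few of its 60 cells carried the genes at 100 or more counts. Scx reached 100 in 8 cells (13.3%), Mkx in 1 (1.67%) and Tnmd in 14 (23.3%). The mean of Scx by strain was 1.44 in Acta2GFP, 0 in C57BL6, 41.5 in the pool and 0 in PdgfrbGFP, or 10.7 ± 20.5 (SD, n = 4). The 8 Scx cells all came from the soleus plate of the pool, which held 45 of the 60 cells. Their Scx ran from 105 to 357 scaled counts with a median of 202.

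Tnmd was found in 5 of these 8 Scx cells at 100 or more, where the product of shares is 1.39 cells, and Mkx in 0 of them. Tnmd had a median of 554 scaled counts in the 8 cells and of 3.85 in the other 52. The log2 correlation of Scx with Tnmd was 0.51 across the 60 cells, given as a description, and the highest 10% of the cells held 70.1% of all Tnmd. Postn, a paramysial marker, reached 100 in 8 of the 8 Scx cells and 50 of the other 52, and Thbs4 in 8 of 8 and 51 of 52. Of the other perimysial markers, Thbs1 reached 100 in 6 of 8 against 6 of 52 and Col11a1 in 2 of 8 against 1 of 52, and the fibroblast marker Pdgfra did in 1 of 8 against 26 of 52. Depth was 636953 counts at the median in these cells and 579162 in the others, and the number of genes 7666.5 against 6691, and their part in the result was not tested.

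Tnmd in cluster 4 was less tied to the pool. Its strain means were 215 scaled counts in Acta2GFP, 64.6 in C57BL6, 124 in the pool and 35.7 in PdgfrbGFP, and all 5 strain labels had a cell at 100 or more. The numbers were small, at 3 of 6 cells in Acta2GFP, 1 of 3 in C57BL6, 8 of 46 in the pool, 1 of 4 in PdgfrbGFP and 1 of 1 in Cspg4dsRED. Mkx means were 0.529, 0.683, 5.23 and 69.2 in the same order. The PdgfrbGFP value came from 1 of 4 cells, at 277 counts.

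Tnmd was also found in mural cells, mostly without the transcription factors at 100 or more counts. In cluster 7, 32 of 187 cells (17.1%, 12.0 to 23.3) had Tnmd at 100 or more, with a median of 235 and a maximum of 1002 scaled counts. They came from Acta2GFP (14 of 56 cells), Cspg4dsRED (11 of 74) and PdgfrbGFP (7 of 37), with 0 of 9 in C57BL6 and 0 of 11 in the pool. Scx reached 100 in 0 of the 32 and Mkx in 1. Myh11, the smooth muscle myosin, reached 100 in 32 of 32 and Pdgfra in 0. Of the perimysial markers, Thbs4 reached 100 in 1 of the 32 against 15 of the other 155, Thbs1 in 10 against 29, and Col11a1 in 0 of either. Median depth was 176546 counts in these cells and 146635 in the other 155.

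Endomysial cells with Tnmd were rarer. Of 1116, 25 (2.24%, 1.45 to 3.29) reached 100. They were 14 of 209 cells in C57BL6, 5 of 60 in Acta2GFP, 4 of 494 in PdgfrbGFP, 2 of 302 in the pool and 0 of 51 in Cspg4dsRED. Pdgfra reached 100 in 19 of the 25 and Thbs4 in 16, against 230 of the other 1091 for Thbs4. Scx reached 100 in 1 endomysial cell and Mkx in 2, and these were not among the 25. In cluster 5, a small endomysial cluster of 31 cells, 4 cells (12.9%) had Tnmd at 100 or more.

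The muscles had been kept apart in the pool and on 1 plate of PdgfrbGFP. In cluster 2, Tnmd averaged 906 scaled counts in 19 gastrocnemius cells and 1317 in 8 soleus cells of the pool, and 1319.96 in 18 and 2261 in 7 cells of PdgfrbGFP. It was higher in soleus in both. Mkx was lower in soleus, at 252 against 277 in the pool and 113 against 208 in PdgfrbGFP. Scx stood at 124 in soleus and 110.3 in gastrocnemius in the pool but at 37.8 and 85.1 in PdgfrbGFP. These differences were not tested, and in the pool each muscle is also a plate of its own. Cells of cluster 9 came mostly from soleus, 8 of 9 in the pool and 9 of 10 on the PdgfrbGFP plate.

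The clusters were then compared over strains. The raw counts of each class were added up within a strain and tested with edgeR's quasi-likelihood test with the strain as a block. P-values were adjusted by Benjamini-Hochberg over all genes that passed the filter on low counts. The log2 fold change carries an approximate standard error, taken from the test statistic. The 3 comparisons with endomysial cells share those libraries, and the 2 comparisons with cluster 2 share its libraries.

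In cluster 2 against endomysial cells (5 strains, 13743 genes tested), Scx rose by 8.39 ± 0.81 on the log2 scale (adjusted p = 0.000711), Mkx by 8.75 ± 0.58 (adjusted p = 0.000133) and Tnmd by 7.06 ± 0.62 (adjusted p = 0.000476), by edgeR, each in 5 of 5 strains. Of all genes tested, 2.06% were called higher and 3.35% lower. In CPM, the counts of a sum relative to its TMM-scaled total, Tnmd ran from 2046 to 3697 in cluster 2 and from 5.80 to 57.8 in endomysial cells, Mkx from 434 to 520.1 and from 0.161 to 1.94, and Scx from 71.9 to 249 and from 0 to 2.32. Endomysial cells of Cspg4dsRED had 0 reads of Scx and 1 of Mkx, so those folds depend on the prior count of the fit.

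In cluster 9 against endomysial cells (4 strains, 13606 genes tested), Scx rose by 9.00 ± 0.75 (adjusted p = 0.000488), Mkx by 8.04 ± 0.46 (adjusted p = 0.000105) and Tnmd by 6.16 ± 0.53 (adjusted p = 0.000556), by edgeR, in 4 of 4 strains each. Here 2.96% of all genes were called higher and 3.81% lower. All 6 of these calls were kept by DESeq2, by another normalization, without the filter, without the block, with plates as the unit and without any 1 strain.

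Cluster 9 against cluster 2 (4 strains, 11843 genes tested) gave smaller differences, and the 3 genes were not called. Scx was higher in cluster 9 by 0.82 ± 0.22 on the log2 scale in 4 of 4 strains (adjusted p = 0.21 by edgeR). Mkx differed by -0.46 ± 0.21 (adjusted p = 0.58) and Tnmd by -0.44 ± 0.17 (adjusted p = 0.44), both lower in 4 of 4 strains. The CPM values of Mkx did not overlap, at 267 to 436 in cluster 9 and 452 to 539 in cluster 2, whereas those of Scx and Tnmd did. Of all genes, 0.363% were called higher and 0.557% lower. DESeq2 put Scx at 0.86 with an adjusted p of 0.049, and without the filter on low counts edgeR called Tnmd at -0.50 (adjusted p = 0.0086).

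In cluster 4 against endomysial cells (4 strains, 14533 genes tested), the 3 genes were not called. Here and against cluster 2, the sums of cluster 4 outside the pool held few cells, 6 in Acta2GFP, 3 in C57BL6 and 4 in PdgfrbGFP. Tnmd stood 2.39 ± 0.73 higher on the log2 scale in 4 of 4 strains (adjusted p = 0.40 by edgeR, 0.047 by DESeq2). Mkx was at 2.29 ± 2.09 and Scx at 0.92 ± 2.77, each higher in 2 of 4 strains (adjusted p = 0.83 and 0.95 by edgeR). Without the pool the Scx difference changed sign, to -1.24, and without the strain block Scx was at 4.09 and Mkx at 5.13. In this comparison 0.0757% of all genes were called higher and 0.0206% lower, 14 genes in all, whereas DESeq2 called 796.

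Against cluster 2 (4 strains, 11622 genes tested), Tnmd was lower in cluster 4 in 4 of 4 strains, by -4.24 ± 0.34 on the log2 scale (adjusted p = 0.00060 by edgeR). Mkx differed by -6.23 ± 1.38 (adjusted p = 0.097) and Scx by -6.47 ± 1.51 (adjusted p = 0.12), lower in 4 of 4 strains but not called by edgeR, and called by DESeq2 (adjusted p = 7.8e-10 and 5.3e-08). Without the strain block these estimates were -3.26 and -3.46. The CPM values did not overlap for any of the 3, with Scx at 0 to 69.6 in cluster 4 and 132 to 269.7 in cluster 2. Over all genes, 0.447% were called higher and 0.568% lower.

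**Figure D5:**
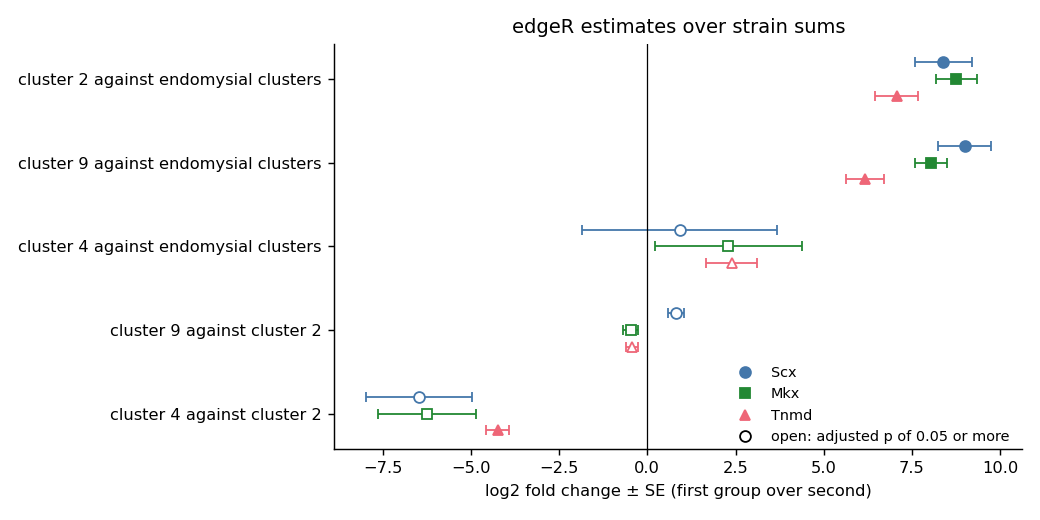
Log2 fold change ± SE (horizontal axis) of Scx, Mkx and Tnmd in the 5 comparisons of strain sums by edgeR; filled symbols have an adjusted p under 0.05. The 6 perimysial estimates against endomysial cells lie between 6.16 and 9.00, those of cluster 9 against cluster 2 within 0.82 of 0, and Tnmd alone is called in cluster 4 against cluster 2.

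Most listed genes for the matrix proteins of tendon were also higher in the perimysial clusters. The list holds Thbs1, Thbs4, Col11a1, Col11a2, Col12a1, Tnc, Comp and Fmod, which the study had itself reported in perimysial cells. Its counts are therefore a description and not independent support. Of 28 tendon matrix and surface genes, 20 were higher and 4 lower in cluster 2 than in endomysial cells, beside 2.06% and 3.35% of all genes tested. Their median log2 fold change was 3.13 beside -0.33 over all genes tested. In cluster 9, 20 were higher and 6 lower, beside 2.96% and 3.81% of all genes, with a median of 2.48 beside -0.35. Among those with the largest change in cluster 2 were Col11a2, a minor fibrillar collagen (9.22 ± 0.45), Tnc (8.98 ± 0.49), Kera, the keratan sulphate proteoglycan keratocan (8.86 ± 0.42), and Cilp2 (8.83 ± 0.37). In cluster 9 they were Col22a1, a collagen of the myotendinous junction (9.67 ± 0.51), Col11a2 (8.73 ± 0.48), Chodl (8.23 ± 0.73) and Col11a1 (7.90 ± 0.84).

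Some matrix genes did differ between the perimysial clusters. In cluster 9 against cluster 2, 1 gene of the 28 was higher and 7 were lower, beside 0.363% and 0.557% of all genes. The study had already named Wif1, Col22a1 and Chodl as differing among perimysial cells. Col22a1 was higher by 5.98 ± 0.81 (adjusted p = 0.019 by edgeR), at 760.4 to 1024 CPM in cluster 9 and 1.01 to 46.6 in cluster 2. Wif1, a secreted Wnt inhibitor, differed by -7.84 ± 0.68 (adjusted p = 0.0023), Kera by -3.08 ± 0.43 (adjusted p = 0.020) and Cilp2 by -1.46 ± 0.26 (adjusted p = 0.048), by edgeR.

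In cluster 4 against endomysial cells, 3 of the 28 were higher and 0 lower by edgeR, and 13 were higher and 2 lower at an unadjusted p under 0.05, whereas DESeq2 called 4 higher. Those called were Thbs4 (3.39 ± 0.34), by which the study had described cluster 4, Cilp (2.18 ± 0.30) and Col5a2 (1.50 ± 0.21). Over all genes tested, 0.0757% were called higher and 0.0206% lower. In cluster 4 against cluster 2, 4 of the 28 were higher and 10 lower, beside 0.447% and 0.568% of all genes. Wif1 differed by -10.25 ± 0.99, Kera by -9.52 ± 0.73, Col11a2 by -8.87 ± 0.87 and Chad, which encodes chondroadherin, by -7.17 ± 0.50.

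Calls of other regulators linked to tendon are given beside those of all genes tested, and the list is too short to set it apart from them. Of 12 such genes, 11 were tested in cluster 2 against endomysial cells. There edgeR called 0 higher (1 at an unadjusted p under 0.05, 1 by DESeq2) and 1 lower, Klf4 (-1.63 ± 0.25). Of all genes, 2.06% were called higher and 3.35% lower, and 2094 of 13743 had an unadjusted p under 0.05. In cluster 9, 0 were called higher (3 at an unadjusted p under 0.05, 3 by DESeq2) and 2 lower, Klf2 (-3.16 ± 0.67) and Klf4 (-2.21 ± 0.29). Both encode Krüppel-like factors. Of all genes there, 2.96% were called higher and 3.81% lower, and 2628 of 13606 had an unadjusted p under 0.05. The median log2 fold change over the regulators was -0.56 in cluster 2 and -0.19 in cluster 9. In the other 3 comparisons edgeR called 0 regulators. There 0.0757% to 0.447% of all genes were called higher and 0.0206% to 0.568% lower. At an unadjusted p under 0.05, 3 regulators were lower in cluster 4 than in endomysial cells (1 by DESeq2). By the same rule 1 was higher and 1 lower in cluster 9 than in cluster 2 (1 and 2 by DESeq2). In cluster 4 against cluster 2, 2 were lower (2 by DESeq2). Over all genes, 981 of 14533, 1087 of 11843 and 934 of 11622 had such a p in these comparisons.

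Among signals, 12 of 17 listed genes were tested in cluster 2. Tgfb3, a TGFβ ligand (1.80 ± 0.28), and Tgfbr3, its co-receptor betaglycan (1.31 ± 0.27), were higher and 0 lower, beside 2.06% and 3.35% of all genes. In cluster 9, Tgfb3 was higher (2.30 ± 0.27), whereas Bmp4 (-2.81 ± 0.39) and Tgfb2 (-1.75 ± 0.32) were lower, out of 14 tested. Of all genes there, 2.96% were called higher and 3.81% lower. In cluster 4 against cluster 2, Tgfbr3 was the 1 call among 12, at -2.27 ± 0.40, beside 0.447% of all genes called higher and 0.568% lower. By edgeR 0 signals were called in cluster 4 against endomysial cells (1 higher and 2 lower at an unadjusted p under 0.05, 1 lower by DESeq2). In cluster 9 against cluster 2, 0 were called too (2 higher and 3 lower at an unadjusted p under 0.05, 2 and 1 by DESeq2). Of all genes, 0.0757% and 0.363% were called higher and 0.0206% and 0.557% lower in these comparisons. At an unadjusted p under 0.05 there were 981 of 14533 and 1087 of 11843. Against endomysial cells the median over the list was -0.58 in cluster 2 and -0.44 in cluster 9, beside -0.33 and -0.35 over all genes.

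Of 11 cartilage and bone genes, 5 were tested in each perimysial cluster, and 2 were higher in each. Of all genes, 2.06% were called higher in cluster 2 and 2.96% in cluster 9. The 2 genes were Matn3, which encodes the cartilage protein matrilin-3 (8.94 ± 0.51 in cluster 2 and 7.60 ± 0.79 in cluster 9), and Col2a1, the main collagen of cartilage (8.72 ± 0.70 and 9.43 ± 0.71). Both were lower in cluster 4 than in cluster 2, at -9.74 ± 0.81 and -8.95 ± 1.63, beside 0.568% of all genes called lower. Matn3 ranged from 0 to 424 CPM over the strains of cluster 2. Acan, Col9a1, Matn1, Sp7, Ibsp and Bglap did not pass the filter in cluster 2. By edgeR 0 of these genes were called in cluster 4 against endomysial cells (3 tested, 0 at an unadjusted p under 0.05, 0 by DESeq2). In cluster 9 against cluster 2, 0 were called too (4 tested, 1 lower at an unadjusted p under 0.05, 2 by DESeq2). Of all genes, 0.0757% and 0.363% were called higher and 0.0206% and 0.557% lower in these comparisons.

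Genes with the most similar pattern were ranked over 37 sums of a cluster in a strain, by the Pearson correlation of log2(CPM + 1), among 11896 genes. Closest to Scx were Scube2 (0.963), Atp6v0a4 (0.932), Tdh (0.927), Cilp2 (0.924) and Mkx (0.922). Closest to Mkx were Col11a2 (0.947), Atp6v0a4 (0.944), Scube2 (0.929), Scx (0.922) and Cilp2 (0.919). Closest to Tnmd were Fmod, which encodes the tendon proteoglycan fibromodulin (0.932), Mkx (0.902), Zfp185 (0.897), Ptx4 (0.893) and Cilp2 (0.885). Tnmd came 17th for Scx and 9th for Mkx, and Scx 6th for Tnmd. The sums of a strain share plates, so the values are a description without a test.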

How the data were processed

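The deposited file held raw read counts per gene and cell. The authors had trimmed the reads with trim galore, mapped them to GRCm38 with TopHat2, used samtools to remove what the methods call doublets (read here as duplicate reads) and counted reads per gene with featureCounts. They dropped cells with few counts, few or very many genes, no Pdgfra and Pdgfrb, or endothelial or immune signatures. The annotation release and the use of strand are not given in the sources used here. Of 1754 columns, 1 matched no label and was not used. No columns were identical (0 of 1753). ERCC rows (92, 1.31% of counts) were left out, and 46005 of 46517 gene identifiers matched GENCODE M21. No doublet caller was run. The extraction text of the labels names heart, whereas the tissue label names skeletal muscle, which was used.

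Counts were scaled to 500000 per cell. Sums per class and strain (3 or more cells) went into edgeR 4.0.16 under R 4.3.3 (TMM, filterByExpr, quasi-likelihood test, strain as block, adjusted p under 0.05), a procedure first tested on simulated counts. DESeq2 1.42.0, RLE factors, no filter, no block, plates as units and each strain left out were the alternatives. Standard errors are the absolute log2 fold change over the square root of the F statistic. Intervals of shares are exact (Clopper-Pearson, 95%), and 0 cells allow a share of 3 cells of the total.

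The genes, lists and tests were chosen with earlier results of these data known. Beside the 3 genes, up to 4 called genes per list and comparison with the largest change and the 5 genes most like each were named. Bop1, the cell type markers and Col12a1 were named outside that rule.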

Additional observations from a re-analysis of the deposited data

Results flagged for a closer look

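In 24 sets of strain means of 4 or 5 strains, 5 held a strain past Dixon's limit, which compares the gap to the nearest mean with the range. That limit flags about 1 in 20 sets of normal values. Many of these means lay near 0 or rested on few cells, so that rate need not hold and no excess over chance follows. Mean Scx in cluster 4 was 41.5 scaled counts in the pool (46 cells), whereas the other strains lay between 0 and 1.44. Mkx in cluster 4 was 69.2 in PdgfrbGFP (4 cells), against 0.529 to 5.23 in the others. Scx in cluster 8 was 2.53 in C57BL6 (60 cells), against 0.0616 to 0.195, and 1 of those cells held 140.0 counts. In cluster 1, the 6 cells of Acta2GFP averaged 1.60 for Scx, against 0.108 to 0.277 elsewhere. The same cells averaged 26.0 for Tnmd, against 3.80 to 6.83.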

How the results depend on the processing

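Against endomysial cells, the calls of Scx, Mkx and Tnmd in clusters 2 and 9 held under every alternative run, and without any 1 strain the log2 fold changes lay between 5.78 and 9.67. In all, 127 recomputed fold changes kept direction and call, 10 became called and 1 changed sign. Tnmd in cluster 4 against endomysial cells became called with DESeq2 (2.49, adjusted p = 0.047), as did Scx in cluster 9 against cluster 2 (0.86, adjusted p = 0.049), and Tnmd there without the filter (-0.50, adjusted p = 0.0086). In cluster 4 against cluster 2, Scx was called with DESeq2 (-6.70) and without the filter (-6.68), and between -8.40 and -5.09 without 1 strain, past the threshold without the pool (adjusted p = 0.028 by edgeR). Mkx there was called with DESeq2 (-6.45), without the filter (-6.41) and with plates as units (-7.85), and lay between -7.54 and -5.21 without 1 strain, past the threshold without PdgfrbGFP (adjusted p = 0.0029 by edgeR). Scx in cluster 4 against endomysial cells ran from -1.24 (without the pool) to 3.00 without 1 strain. The causes were not tested.

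Counts of called genes moved more. DESeq2 gave 1990 in place of 743 (cluster 2) and 2618 in place of 921 (cluster 9) against endomysial cells, 796 in place of 14 (cluster 4), 848 in place of 109 (cluster 9 against cluster 2) and 896 in place of 118 (cluster 4 against cluster 2). Plates as units gave 1175 for cluster 2 and 26 for cluster 4 against endomysial cells, and 41 for cluster 9 against cluster 2. Against cluster 2, no filter gave 345 (cluster 9) and 327 (cluster 4), and no block gave 181 (cluster 4). No block gave 8 for cluster 4 against endomysial cells. Without 1 strain the counts ran, in the order above, from 362 to 1178, 438 to 572, 10 to 64, 35 to 50 and 74 to 132.

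The strain block joins cells of the same label. No paired analysis by replicate number was possible because the labels give cells no shared numbers, and without the strain block no call of the 3 genes changed. Estimates in cluster 4 did move, from 0.92 to 4.09 (Scx) and from 2.29 to 5.13 (Mkx) against endomysial cells, and from -6.47 to -3.46 and from -6.23 to -3.26 against cluster 2. With plates as units, Mkx and Tnmd in cluster 4 against endomysial cells were at 0.25 and 1.37, not called.

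Shares fell with thinning to 45000 reads. In cluster 2 they became 46.4% for Scx, 67.4% for Mkx and 31.4% for all 3, and in cluster 4 they became 23.1%, 14.6%, 44.8% (Tnmd) and 2.07%. At 100 or more counts they were 25.7%, 54.6% and 14.1% in cluster 2, 54.2%, 55.9% and 32.2% in cluster 9, and 13.3%, 1.67%, 23.3% and 0% in cluster 4. Over all cells instead of strains, Scx in cluster 4 averaged 32.5. Tnmd lay above 0 and under 20 scaled counts in 754 of 1116 endomysial cells, so the order of clusters at such levels is a description of low reads.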
